A study of Mus musculus with 16 samples.

Results

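The integrin, adhesion and cytoskeleton genes of peritoneal macrophages (PMs) were examined in an m6A sequencing experiment. The members were chosen by gene symbol, from the families of integrins, ICAMs, talins, kindlins, SKAPs, paxillin, filamins, alpha-actinins, actin-related and Arp2/3 proteins, WASP, WAVE and WASH proteins, coronins, formins, Ena/VASP proteins, LIM kinases, ERM proteins, plakins, myosins, septins, tubulins, microtubule-associated proteins and kinesins. Of 4943 genes in the deposited data, 60 met the rule, and they held 99 of 7069 peaks. Of these genes 40 had 1 peak, 20 had more, and plectin (Plec) had the most with 9. A total of 10 of the peaks were also assigned to another gene, so that 6 members were measured through shared peaks only, Icam1, Actn1, Coro7, Itga1, Myo9a and Tubgcp4. Skap1, Skap2, Evl, Enah, Fermt3 and Itgam, partners of ADAP or of beta-2 integrins, were not analysed here.

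PMs were taken by lavage from thioglycolate-injected C57BL/6 WT and Adap-/- mice, littermates of 6-8 weeks matched for sex per the study's methods. They were left untreated (mock) or given 1 ug/ml LPS, a bacterial lipopolysaccharide, for 6 h. Each of the 4 groups had 2 replicates, and the fragmented RNA of each was split into an input library and an IP library captured with an m6A antibody, giving 16 libraries. The Adap-/- allele is lost in every cell of the mouse, elicited PMs are recruited to an irritated cavity, and the labels do not say whether replicates came from separate animals. The p-values below therefore measure the spread between these samples, which may be technical. In bulk RNA, fewer cells of a type and less RNA per cell cannot be told apart.

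Read counts on all peaks lay between 2121313 and 4325961 per input library and between 5728590 and 19030373 per IP library. The targeted gene, Fyb1, which encodes ADAP, gave 952 and 953 input reads in WT mock PMs, 1123 and 1042 in WT LPS PMs, 178 and 152 in Adap-/- mock PMs and 147 and 98 in Adap-/- LPS PMs, with no overlap between genotypes. All 7 macrophage markers were found, at a summed level of 9480-10030 CPM in WT mock, 9875-10390 in WT LPS, 8721-9069 in Adap-/- mock and 9457-10610 in Adap-/- LPS PMs. No marker of resident peritoneal macrophages, B cells, T cells, eosinophils or mast cells was among the genes analysed. Only genes with a peak are covered, so a marker that was not found does not show that its cells were absent. Of 9 neutrophil markers only Csf3r was found, and of 9 mesothelial and fibroblast markers only Pdgfra. Of 6 markers of cycling cells only Mki67 was found, at 17.5-20.5 CPM in WT mock, 37.8-47.1 in Adap-/- mock, 58.6-72.1 in WT LPS and 165-252 in Adap-/- LPS PMs.

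Integrins are pairs of an alpha and a beta chain that span the membrane and hold cells to matrix or to ligands on other cells. Talin binds the beta chain inside the cell and switches the pair to its adhesive state, and filamin, alpha-actinin and VASP tie it to actin filaments. ADAP is an adaptor that joins immune receptors to this machinery and is best known for raising the adhesion of the integrin LFA-1, the product of Itgal and Itgb2, to its ligand ICAM-1. Branched actin, made by the Arp2/3 complex under the control of WASP, WAVE and WASH proteins, drives protrusion, phagocytosis and sorting of endosomes in macrophages.

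LPS changed about as large a share of these genes as of all genes tested. Gene expression was taken as the input reads on all peaks of a gene, scaled by library size to CPM values, and 56 of the 60 genes had enough reads to be tested. Flnc, Tubg2, Tubgcp4 and Washc1 did not, with at most 7 reads in any input library. In WT PMs, LPS changed 37 of 56 genes at an adjusted p below 0.05 (edgeR's quasi-likelihood test), 66.1% against 59.2% of all genes tested. Of these, 16 were higher (28.6%, all genes 30.2%) and 21 lower (37.5%, all genes 28.9%). The median log2 fold change was -0.17, beside -0.03 over all genes tested. In Adap-/- PMs 36 of 56 changed, beside 54.5% of all genes, 18 of them higher (32.1%, all genes 28.5%) and 18 lower (32.1%, all genes 26%), with a median of -0.11. In both genotypes 15 genes were called higher and 17 lower, none was called in opposite directions, and 15 were called in neither. Such joint counts were not made over all genes, so they do not set these genes apart.

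**Figure D1:**
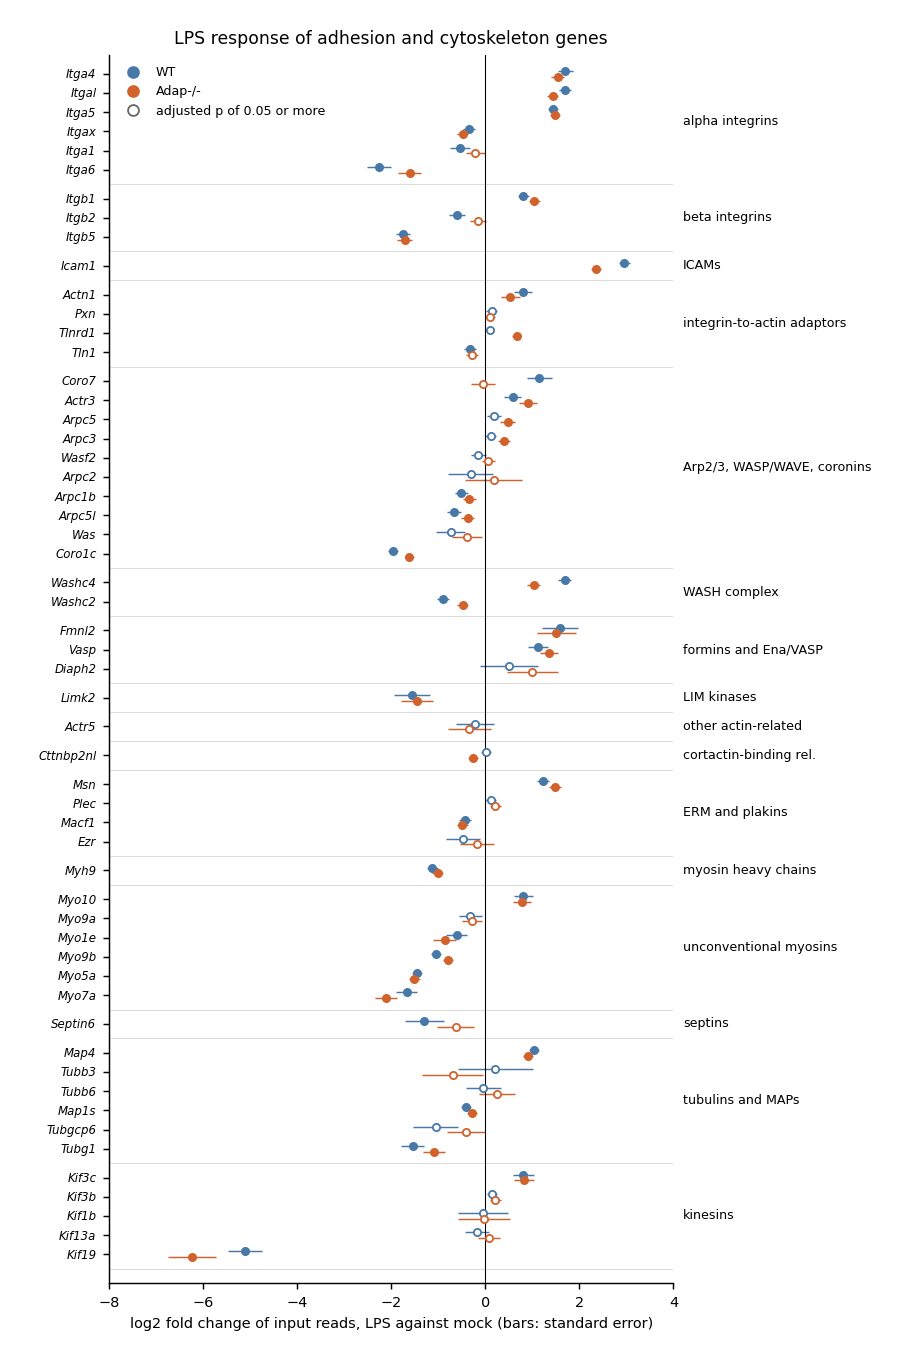
Fitted log2 fold change of input reads, LPS against mock, for 55 of the 56 tested genes grouped by function, with WT in blue, Adap-/- in orange and bars for the standard error. Filled points passed an adjusted p of 0.05, and the values run from -6.24 and -5.11 for Kif19 to 2.96 for Icam1 in WT PMs.

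Among the 6 alpha integrins, 3 rose and 3 fell in WT PMs. Itgal, the alpha chain of LFA-1, stood at 58.1 and 64.7 CPM in WT mock libraries and at 210.4 and 185 CPM after LPS. In Adap-/- PMs it went from 134 and 153 CPM to 353 and 420.0 CPM. All LPS libraries were above the mock libraries of the same genotype, with a log2 fold change of 1.69 (SE 0.13, adjusted p = 8.43e-09) in WT and 1.43 (SE 0.12, adjusted p = 2.46e-08) in Adap-/- PMs. Itga4, the alpha chain of VLA-4, which binds VCAM-1 and fibronectin, was at 24.6 and 22.4 CPM in WT mock PMs and at 78.6 and 74.1 CPM after LPS, and in Adap-/- PMs at 40.7 and 47.3 and then 114 and 144 CPM. Its log2 fold changes were 1.70 (SE 0.16) and 1.54 (SE 0.14) in WT and Adap-/- PMs. Itga5, the alpha chain of the main fibronectin receptor, rose by 1.45 (SE 0.11) and 1.48 (SE 0.11) on the log2 scale, from 248-269 to 686-726 CPM in WT PMs.

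Itga6, a laminin receptor chain, fell with LPS, from 35.3 and 41.5 to 8.39 and 7.59 CPM in WT and from 27.6 and 39.6 to 9.31 and 13.1 CPM in Adap-/- PMs. The log2 fold change was -2.25 (SE 0.26) in WT and -1.61 (SE 0.24) in Adap-/- PMs. Itgax, the CD11c chain of complement receptor 4, fell by 0.35 and 0.48 on the log2 scale in WT and Adap-/- PMs. Itga1, a collagen receptor chain, fell in WT PMs, with a log2 fold change of -0.54 (adjusted p = 0.0354), and was at -0.22 (adjusted p = 0.393) in Adap-/- PMs. Its only peak is shared with Pelo and a gene without a symbol, and the annotation gives it no region in Itga1. Its reads may therefore not be those of Itga1.

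The beta chains did not move as one. Itgb1, the partner of Itga4, Itga5 and Itga6, rose, from 92.1 and 109 to 171 and 181 CPM in WT PMs and from 98.2 and 97.6 to 187 and 217 CPM in Adap-/- PMs. Itgb2, the beta chain shared by LFA-1 and the complement receptors, was at 52.7 and 48.0 CPM in WT mock and 33.6 and 32.5 CPM in WT LPS PMs, a log2 fold change of -0.61 (SE 0.17, adjusted p = 0.00624). In Adap-/- PMs it was at 32.3 and 41.0 CPM in mock and 28.5 and 37.9 CPM in LPS libraries, which overlapped, with a log2 fold change of -0.16 (SE 0.18, adjusted p = 0.469). By input reads, the transcript of the LFA-1 alpha chain was thus higher after LPS in both genotypes while that of its beta chain was not higher in either. Itgb2 was read from 1 start codon peak listed over 12102 bases, and Itgal from 2 stop codon peaks with 100 bases together. These are RNA values, and protein was not measured. Itgb5, which pairs with the alpha-v chain to bind vitronectin, fell in both genotypes, from 237 and 301 to 69.9 and 91.1 CPM in WT and from 175 and 159 to 46.6 and 55.8 CPM in Adap-/- PMs.

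Icam1, the ligand of LFA-1, showed the greatest rise among the 56 tested genes in both genotypes. It stood at 334 and 314 CPM in WT mock and 2574 and 2471 CPM in WT LPS PMs, a 7.78-fold rise (log2 fold change 2.96, SE 0.12, adjusted p = 1.97e-12). In Adap-/- PMs it went from 468 and 552 to 2585 and 2643 CPM, with a log2 fold change of 2.36 (SE 0.11, adjusted p = 2.57e-11). Both peaks of Icam1, on chromosome 9 at 20939129-20939678 and 20939728-20939927 of GRCm39, are also assigned to an overlapping gene without a symbol.

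**Figure D2:**
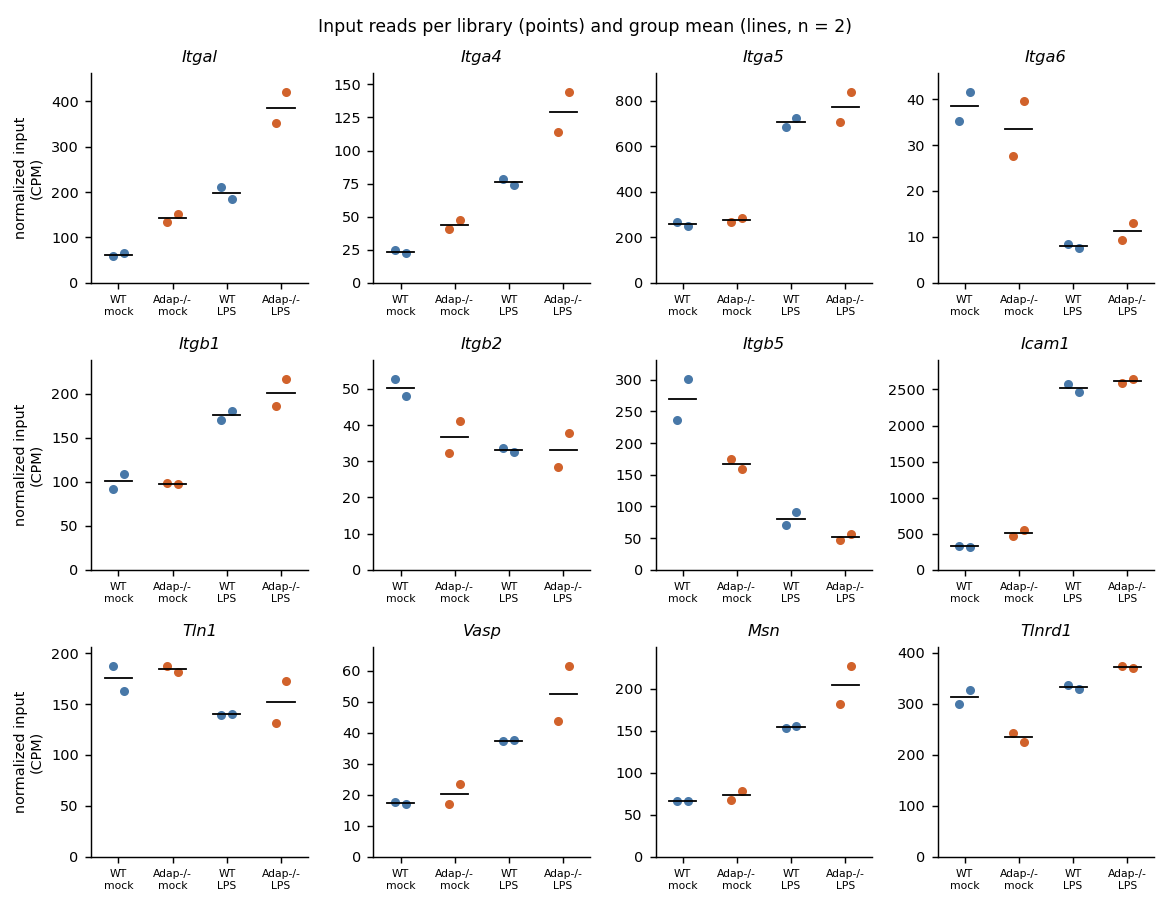
Input level in CPM (y axis, from 0) of 12 genes in each of the 8 input libraries, with points for libraries, lines for the means of 2 and WT in blue and Adap-/- in orange. Itgal and Itga4 were higher in both Adap-/- libraries than in both WT libraries with and without LPS, while Icam1 lay between 2471 and 2643 CPM in all 4 LPS libraries.

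Icam1 is a textbook target of the NF-kB family, and its promoter is shown because it carries the greatest rise. Promoters of 300 bases were taken from RefSeq (GRCm38.p6, not the build of the peaks) for the 48 of 60 genes that matched by symbol. They were searched on both strands for 2 kB-type motifs, GGAANTTCC, a palindrome, and the longer form of GGG and TTTCC with any 2 bases between them. The windows that hold one are printed 5′ to 3′ on the strand of the gene, with the motif, or its reverse complement in Limk2, in capitals.
Icam1 (chr9:21015777-21015806, + strand): acttcagtttGGAAATTCCtagatcgcagg
Was (chrX:8090472-8090501, - strand): tgctcactgcGGAAGTTCCtcttcttaccc
Limk2 (chr11:3356262-3356291, - strand): acaggagagaGGAAAGGCCCagacatgtag
GGAANTTCC was found in 2 of 48 promoters (4.17%) and in 289 of all 27025 genes with a promoter (1.07%), and the longer form in 1 of 48 (2.08%) and 512 of 27025 (1.89%). Icam1 rose with LPS, Was was not called in either genotype, and Limk2 fell. A match of letters is a description and no binding site, and of the 14 genes with a promoter that rose in WT PMs only Icam1 held either motif.

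Of the 5 tested adaptors between integrins and actin, 2 rose and 1 fell in WT PMs. Actn1, alpha-actinin 1, rose by 0.80 (SE 0.19) and 0.53 (SE 0.20, adjusted p = 0.0302), but in Adap-/- PMs the second LPS library, at 84.2 CPM, lay between the mock libraries at 90.3 and 75.7 CPM. Tln1, talin 1, the main activator of integrins, was at 188 and 163 CPM in WT mock and 140 and 140 CPM in WT LPS PMs (log2 fold change -0.33, SE 0.13, adjusted p = 0.0374). In Adap-/- PMs it was at 187 and 182 CPM in mock and 131 and 173 CPM in LPS libraries (-0.29, adjusted p = 0.0661), a value that was -0.49 (adjusted p = 0.00693) without Adap-/- LPS replicate 2 and -0.09 (adjusted p = 0.605) without Adap-/- LPS replicate 1. It also passed with at least 10 counts in every library (adjusted p = 0.0316), with peaks of 1 gene (adjusted p = 0.0446) and without either WT mock replicate (adjusted p = 0.044 and 0.0441). The WT call of Tln1 was lost with DESeq2 (-0.3, adjusted p = 0.114). It was also lost without WT LPS replicate 1 (-0.32), WT LPS replicate 2 (-0.33) or WT mock replicate 1 (-0.25). Pxn, paxillin, a scaffold of adhesion sites, had log2 fold changes of 0.14 and 0.10 with adjusted p-values of 0.319 and 0.469.

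The actin nucleation machinery was split. Of 10 genes of the Arp2/3 complex, its activators and the coronins, 2 rose and 3 fell in WT PMs, and 3 rose and 3 fell in Adap-/- PMs. Actr3, the Arp3 subunit, rose by 0.58 (SE 0.18) in WT and 0.91 (SE 0.19) in Adap-/- PMs. Arpc1b and Arpc5l, other subunits of the same complex, fell by 0.51 and 0.67 in WT and by 0.34 and 0.38 in Adap-/- PMs on the log2 scale. Coro1c, coronin 1C, which takes part in turnover of branched actin, was at 524 and 534 CPM in WT mock PMs and at 125 and 146 CPM after LPS, a log2 fold change of -1.97 (SE 0.10). In Adap-/- PMs it was at 456 and 439 and then 145 and 147 CPM, with -1.62 (SE 0.10). Coro7, coronin 7, rose in WT PMs from 8.19 and 8.08 to 16.2 and 20.2 CPM, and in Adap-/- PMs was at 14.7 and 12.1 CPM in mock and 12.4 and 13.5 CPM in LPS libraries. Its only peak is shared with Dnaja3 and Vasn, and the annotation gives it no region in Coro7. Its reads may therefore not be those of Coro7. Was, the WASP protein of blood cells, was at 11.5 and 10.2 CPM in WT mock and 5.90 and 7.23 CPM in WT LPS PMs. The log2 fold change was -0.73 (SE 0.31) with an adjusted p of 0.0525. It passed with at least 10 counts in every input library (-0.8, adjusted p = 0.0232) and with only the peaks of 1 gene (-0.76, adjusted p = 0.0466).

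Both tested genes of the WASH complex, which makes branched actin on endosomes, changed in opposite directions. Washc4 rose from 26.4 and 28.0 to 79.2 and 96.2 CPM in WT PMs (log2 fold change 1.69, SE 0.14) and from 36.7 and 36.9 to 77.0 and 73.3 CPM in Adap-/- PMs (1.03, SE 0.13). Washc2 fell in WT PMs from 86.0 and 82.2 to 42.3 and 47.7 CPM (-0.91, SE 0.13) and in Adap-/- PMs from 87.7 and 80.3 to 64.0 and 55.4 CPM (-0.48, SE 0.12).

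Among elongators of unbranched actin, Vasp, which binds barbed ends and was found in complexes with ADAP, rose from 17.7 and 17.0 to 37.3 and 37.6 CPM in WT PMs (log2 fold change 1.11, SE 0.21) and from 17.1 and 23.5 to 43.7 and 61.6 CPM in Adap-/- PMs (1.35, SE 0.20). The formin Fmnl2 rose by 1.59 (SE 0.39) and 1.51 (SE 0.42) from a low level, 2.56 and 5.39 CPM in WT mock PMs, and lost its call without WT LPS replicate 1 (adjusted p = 0.0597) in WT and without Adap-/- mock replicate 1 (adjusted p = 0.0525) in Adap-/- PMs. Limk2, a kinase that blocks the severing of actin by cofilin, fell by 1.56 (SE 0.39) and 1.45 (SE 0.34). Moesin (Msn), which ties the membrane to cortical actin, rose by 1.22 (SE 0.13) in WT and 1.49 (SE 0.13) in Adap-/- PMs, from 66.3 and 65.7 to 153 and 155 CPM in WT PMs. Its relative Ezr was at -0.48 and -0.17, with adjusted p-values of 0.289 and 0.71.

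Of 6 unconventional myosins, the motor proteins of actin, 4 fell and 1 rose in each genotype, and the non-muscle heavy chain Myh9 fell by 1.13 (SE 0.12) in WT and by 1.01 (SE 0.11) in Adap-/- PMs. Myo5a, which carries vesicles, was at 208 and 199 CPM in WT mock PMs and at 72.4 and 75.5 CPM after LPS, and fell by 1.46 and 1.51 on the log2 scale. Myo7a fell by 1.68 and 2.11, Myo9b, a single-headed myosin, by 1.05 and 0.79, and Myo1e by 0.61 and 0.87, where the Adap-/- call was lost without Adap-/- mock replicate 1 (-0.62, adjusted p = 0.0944). Myo10, which builds filopodia, rose by 0.81 (SE 0.21) and 0.77 (SE 0.19). Septin6 fell by 1.30 (SE 0.41) in WT PMs from 8.44 and 5.66 CPM, and was at -0.63 (adjusted p = 0.194) in Adap-/- PMs. Its WT call was lost with DESeq2 (-1.28, adjusted p = 0.0574), without WT LPS replicate 1 (-1.11) or without WT mock replicate 1 (-1.01).

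On the microtubule side, Map4, which stabilizes microtubules, rose from 183 and 173 to 337 and 397 CPM in WT PMs (log2 fold change 1.04, SE 0.11) and by 0.91 (SE 0.11) in Adap-/- PMs. Tubg1, gamma-tubulin of the nucleating ring, fell by 1.55 (SE 0.25) and 1.09 (SE 0.23). Kif3c, a kinesin-2 motor, rose by 0.81 (SE 0.23) and 0.83 (SE 0.22), with the WT call lost without WT mock replicate 2 (0.66, adjusted p = 0.0566), whereas its partner family member Kif3b was at 0.15 and 0.22 with adjusted p-values of 0.281 and 0.115. Kif19, a motor that shortens microtubules in cilia, had the deepest fall. It gave 204 and 158 input reads in WT mock, 3 and 5 in WT LPS, 122 and 89 in Adap-/- mock and 1 and 1 in Adap-/- LPS libraries. Per scaled library this was 2.81% of the mock level in WT (95% exact interval 1.21-5.6%) and 1.2% in Adap-/- PMs (0.144-4.37%), intervals that cover counting error only and overlap.

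The effect of the knockout was tested separately with and without LPS, and both comparisons share libraries with the LPS comparisons above. After LPS, 10 of 56 genes differed between Adap-/- and WT PMs, 17.9% against 15.8% of all genes, 8 of them higher (14.3%, all genes 6.03%) and 2 lower (3.57%, all genes 9.78%) in Adap-/- PMs. Without LPS 10 of 56 differed, beside 17.4% of all genes, 6 higher (10.7%, all genes 8.71%) and 4 lower (7.14%, all genes 8.65%). The medians were 0.11 after LPS and 0.05 in mock PMs, with -0.01 and 0.01 over all genes. Mki67, the marker of cycling cells, moved with genotype too, at log2 fold changes of 1.66 after LPS and 1.16 in mock PMs. Of the 7 macrophage markers, Fcgr1 (-1.28, adjusted p = 0.000204) and Mertk (-0.32, adjusted p = 0.0371) were lower and Cd14 (0.49, adjusted p = 0.0193) was higher in Adap-/- PMs after LPS, and none was called in mock PMs. The part of these markers in the results was not tested. The count after LPS depended on single libraries: it was 3 without Adap-/- LPS replicate 2, 4 without WT LPS replicate 1, 5 without WT LPS replicate 2 and 6 with DESeq2. The mock count was 5 without Adap-/- mock replicate 2.

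Itgal was the clearest of them, read from neighbouring peaks at chr7:126932767-126932816 and 126932842-126932891. A fragment of RNA may have been counted on both, so the summed counts of Itgal may hold some reads more than once. Its levels, given above, did not overlap between genotypes in either condition, and it was higher in Adap-/- PMs by 0.96 (SE 0.12, adjusted p = 7.85e-05) after LPS and by 1.22 (SE 0.13, adjusted p = 2.41e-05) in mock PMs on the log2 scale. Itga4 was higher by 0.75 (SE 0.13, adjusted p = 0.00129) after LPS and 0.91 (SE 0.16, adjusted p = 0.00133) in mock PMs. Neither beta partner passed the test: Itgb2 was at -0.01 (SE 0.18, adjusted p = 0.981) after LPS and -0.45 (SE 0.16, adjusted p = 0.0673) in mock PMs, and Itgb1 at 0.20 (adjusted p = 0.29) and -0.04 (adjusted p = 0.857). Itgb5 was lower in Adap-/- PMs in both conditions, by -0.66 (SE 0.17, adjusted p = 0.0136) after LPS and -0.69 (SE 0.14, adjusted p = 0.00281) in mock PMs. The call after LPS was lost without Adap-/- LPS replicate 1 (-0.52, adjusted p = 0.128) or WT LPS replicate 2 (-0.46, adjusted p = 0.145).

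Plakins, giant linkers of actin, microtubules and intermediate filaments, were also higher in Adap-/- PMs in both conditions. Plec was at 307 and 234 CPM in WT mock, 369 and 381 in Adap-/- mock, 282 and 304 in WT LPS and 409 and 460.1 in Adap-/- LPS PMs, with log2 fold changes of 0.47 (SE 0.12) in mock PMs and 0.57 (SE 0.12) after LPS. Macf1 was at 0.58 (SE 0.11) and 0.53 (SE 0.12). After LPS, both lost their call without Adap-/- LPS replicate 2 (Plec 0.48, adjusted p = 0.0565, and Macf1 0.44, adjusted p = 0.0984) or WT LPS replicate 1 (0.52, adjusted p = 0.0556, and 0.54, adjusted p = 0.0527).

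Icam1, the gene with the greatest rise with LPS, was called higher in Adap-/- PMs without LPS, at 0.65 (SE 0.11, adjusted p = 0.000956). After LPS it was at 0.05 (SE 0.11, adjusted p = 0.796). The difference between these conditions was tested as the difference of the LPS responses and did not pass, at -0.60 (SE 0.15, adjusted p = 0.0638). It passed with DESeq2 (-0.61, adjusted p = 0.0118) and without WT mock replicate 1 (-0.63, adjusted p = 0.0266).

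The remaining calls after LPS were small. Msn (0.40, adjusted p = 0.0338), Myh9 (0.40, adjusted p = 0.0449), Myo9b (0.36, adjusted p = 0.0372) and Washc2 (0.42, adjusted p = 0.0473) were higher in Adap-/- PMs, and each was lost with DESeq2, where the adjusted p lay at 0.104, 0.171, 0.0886 and 0.188. With the replicate number as a block the calls of Myh9 (adjusted p = 0.0552) and Washc2 (adjusted p = 0.0604) were lost, and that of Washc2 also with RLE scaling (adjusted p = 0.0513). Leaving out 1 library gave 0.24-0.56 for Msn, 0.36-0.43 for Myh9, 0.22-0.51 for Myo9b and 0.31-0.51 for Washc2. The lowest values came without Adap-/- LPS replicate 2 for Msn and without WT LPS replicate 1 for Myo9b. Myh9 and Washc2 each lost the call without any 1 of the LPS or Adap-/- mock libraries. Msn lost it without Adap-/- LPS replicate 2 or either WT LPS replicate, and Myo9b without either Adap-/- LPS replicate or WT LPS replicate 1. Actn1 was lower, at -0.69 (SE 0.19, adjusted p = 0.0208), with 153 and 84.2 CPM in Adap-/- LPS and 182 and 205 CPM in WT LPS libraries. The call was lost without Adap-/- LPS replicate 2 (-0.34, adjusted p = 0.189), WT LPS replicate 1 (-0.77, adjusted p = 0.0528) or WT LPS replicate 2 (-0.60, adjusted p = 0.116). In mock PMs Kif19 (-0.83, adjusted p = 0.0118), the Arp2/3 subunit Arpc3 (-0.48, adjusted p = 0.0144) and Tlnrd1 (-0.41, adjusted p = 0.00666) were lower. Kif19 was at -0.56 (adjusted p = 0.181) without Adap-/- mock replicate 2 and -0.67 (adjusted p = 0.0882) without WT mock replicate 1, Arpc3 at -0.35 (adjusted p = 0.142) without WT mock replicate 2, -0.44 (adjusted p = 0.0978) without Adap-/- mock replicate 1 and -0.52 (adjusted p = 0.0723) without Adap-/- mock replicate 2, and Tlnrd1 at -0.36 (adjusted p = 0.102) without Adap-/- mock replicate 2 and -0.35 (adjusted p = 0.0571) without WT mock replicate 2. Vasp, linked to ADAP, was at 0.48 (adjusted p = 0.105) after LPS, or 0.72 (adjusted p = 0.0351) without Adap-/- LPS replicate 1, and 0.23 (adjusted p = 0.519) in mock PMs, and Tln1 at 0.11 (adjusted p = 0.609) and 0.07 (adjusted p = 0.73).

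**Figure D3:**
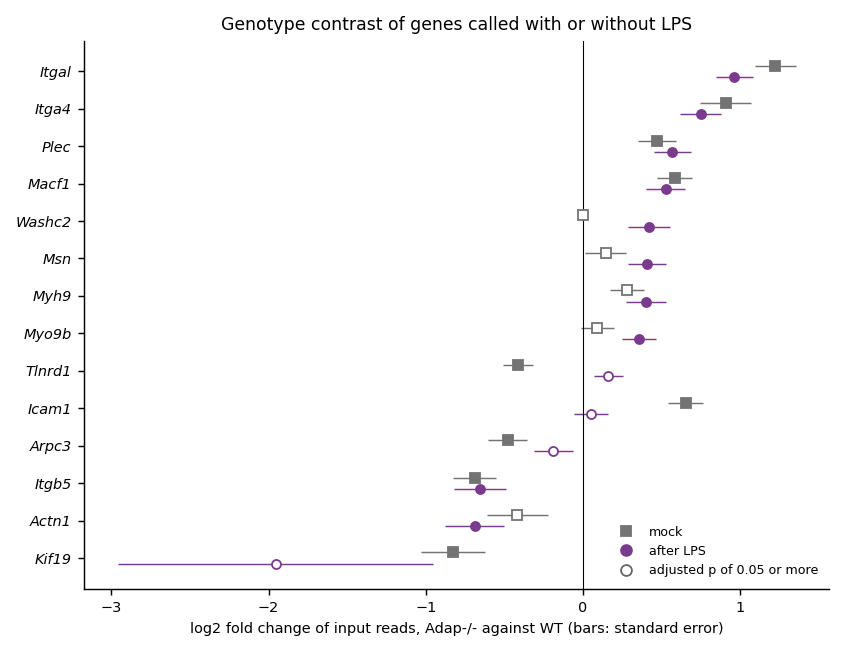
Fitted log2 fold change of input reads, Adap-/- against WT, in mock PMs (grey squares) and after LPS (purple circles), with bars for the standard error, for 14 genes called in either condition. Itgal and Itga4 lie farthest to the right in both conditions and Itgb5 is to the left in both, while no bar is drawn for Washc2 in mock PMs, whose value is near 0.

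Of 56 genes 1 (1.79%, all genes 1.64%) differed in its LPS response between genotypes, with a greater response in Adap-/- PMs (all genes 0.358%). Tlnrd1, a talin rod domain protein that bundles actin, was at 299 and 327 CPM in WT mock, 337 and 329 in WT LPS, 243 and 226 in Adap-/- mock and 374 and 371 in Adap-/- LPS PMs. It rose with LPS in Adap-/- PMs (log2 fold change 0.67, SE 0.09, adjusted p = 1.57e-05) and was at 0.09 (adjusted p = 0.433) in WT PMs. The difference of responses was 0.58 (SE 0.13, adjusted p = 0.0375). Leaving out 1 library gave 0.53-0.66, and the call was kept without WT mock replicate 1 (adjusted p = 0.0166) and lost without each of the other 7 libraries, with adjusted p-values from 0.0688 without Adap-/- mock replicate 1 to 0.212 without Adap-/- mock replicate 2.

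A wider list of 83 adhesion and cytoskeleton genes outside these families, among them kinases, small actin-binding proteins and matrix ligands, had 43 genes in the table and 42 tested. In WT PMs 19 rose and 11 fell with LPS (all genes 30.2% and 28.9%), in Adap-/- PMs 19 and 9 (all genes 28.5% and 26%). Against WT, 3 were higher and 4 lower in Adap-/- PMs after LPS (all genes 6.03% and 9.78%), and 5 were higher and 6 lower in mock PMs (all genes 8.71% and 8.65%). For the difference of responses 1 passed, Marcksl1, at -0.91 (SE 0.20, adjusted p = 0.03), which rose by 4.83 in WT and 3.92 in Adap-/- PMs with LPS. Fyb1, the deleted gene, is on this list and is 1 of the lower genes in both. Vcam1, the ligand of the Itga4 pair, was at log2 fold changes of 3.94 and 3.28 with LPS in WT and Adap-/- PMs. Src, a kinase active at adhesion sites, was at 3.57 and 3.44, and Ptk2b, the focal adhesion kinase of blood cells, was lower in Adap-/- PMs after LPS by -0.75 (adjusted p = 0.000366).

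The authors' annotation placed these genes in KEGG pathways that largely follow from the families chosen, so the shares below describe the choice. Of the 40 members with a pathway, 23 (57.5%) were in regulation of actin cytoskeleton, to which 86 of all 2024 genes with a pathway (4.25%) belonged. Focal adhesion held 12 (30%, all genes 3.71%), Fc gamma receptor-mediated phagocytosis 11 (27.5%, 2.42%) and leukocyte transendothelial migration 10 (25%, 2.22%).

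The m6A mark, a methyl group on adenosine within mRNA, is known to gather near stop codons and in the 3′UTR. Of the 99 peaks of the adhesion and cytoskeleton genes, 36 (36.4%) lay in the CDS, 22 (22.2%) in the 3′UTR, 19 (19.2%) at the stop codon, 18 (18.2%) at the start codon and 2 (2.02%) in the 5′UTR, and 2 had no region. Over all 7069 peaks the shares were 31.7% in the CDS, 16% in the 3′UTR, 32.7% at the stop codon and 13.6% at the start codon. Enrichment was taken as the ratio of IP to input CPM of a peak, scaled so that the average peak is near 1, which hides any change shared by all peaks. The mean log2 ratio over the groups had a median of -0.08 for the 99 peaks and 0.03 for all 7058 tested peaks. At the stop codon the medians were -0.40 and 0.05, in the CDS -0.17 and -0.01, at the start codon 0.11 and -0.03 and in the 3′UTR -0.06 and -0.02.

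**Figure D4:**
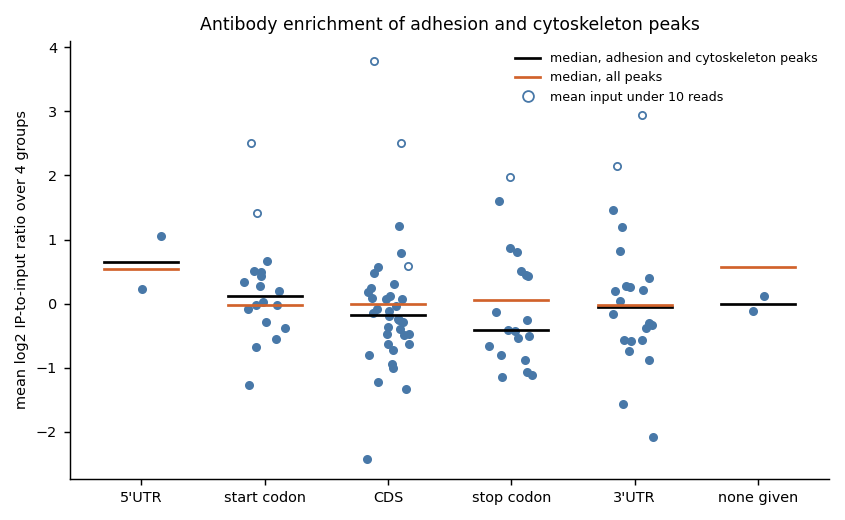
Mean log2 IP-to-input ratio over the 4 groups for each of the 99 peaks, by region, with the median of these peaks in black and of all peaks in orange. Among the 91 peaks with a mean input of at least 10 reads the values run from -2.42 to 1.61, and open points have less input.

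The highest mean log2 ratios among the 91 peaks with a mean input of at least 10 reads were 1.61 at the stop codon of Myo9a, 1.47 in the 3′UTR of Actr5, 1.20 in the CDS of Arpc3, 1.20 in the 3′UTR of Itga4 and 1.06 in the 5′UTR of Tln1. The lowest were -2.42 in the CDS of Myh9, -2.07 in the 3′UTR of Coro1c, -1.57 in the 3′UTR of Icam1, -1.33 in the CDS of Map4 and -1.27 at the start codon of Actn1. The Myh9, Arpc3 and Tln1 peaks named here are listed over 4521, 4509 and 2537 bases. Their ratios may not compare with those of short peaks. Peaks of the same gene could differ. Icam1 had a mean log2 ratio of 0.87 at its stop codon and -1.57 in the adjoining 3′UTR, Arpc3 ran from -1.23 to 1.21, and the 9 peaks of Plec ran from -0.94 to 0.09. In Itga4 the 3′UTR peak at chr2:79157590-79157914 had ratios between 1.64 and 3.07 in all 8 replicates.

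Before changes in the ratio are given, a property of the IP libraries matters. On 183 peaks that LPS raised in the input of both genotypes, the IP libraries of WT mock replicate 1 and Adap-/- mock replicate 2 held 17.4% and 14.4% of the LPS input level, while those of WT mock replicate 2 and Adap-/- mock replicate 1 held 1.02% and 1.62%, and the mock input libraries 0.847-1.22%. On 22 peaks that LPS lowered, the IP libraries of WT LPS replicates 1 and 2 held 11.7% and 6.27% of the mock input level, those of Adap-/- LPS PMs 2.22% and 2.29%, and the LPS input libraries 2.43-4.4%. On the 183 peaks the LPS IP libraries themselves held only 28.6% and 24.9% in WT and 21.1% and 24.5% in Adap-/- PMs. The 17.4% and 14.4% thus lie near the level of an LPS IP library. The 183 and 22 peaks were chosen by a log2 rise above 5 or fall above 4 in the inputs, so the low input shares follow from the choice. Ratio counts below include WT mock replicate 1 and Adap-/- mock replicate 2, and named LPS changes in the ratio are given with and without them.

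No peak of these genes changed its ratio at an adjusted p below 0.05 in edgeR's quasi-likelihood test, nor in DESeq2, in any of the 4 comparisons, and the lowest adjusted p was 0.2045. Over all 7058 tested peaks the count at an adjusted p below 0.05 was 1 (0.0142%) for Adap-/- against WT after LPS and 0 in each of the other comparisons. At an unadjusted p below 0.05, 7 of the 99 peaks were found for Adap-/- against WT after LPS (all peaks 7.13%), 3 in mock PMs (all peaks 2.1%), 7 for LPS in WT (all peaks 10.8%) and 11 for LPS in Adap-/- PMs (all peaks 11.5%). With a log2 change above 1 as well, 5 were left for Adap-/- against WT after LPS (5.05%, all peaks 4.14%), 1 higher (all peaks 1.32%) and 4 lower (all peaks 2.82%). In mock PMs it was 1 (1.01%, all peaks 1.28%), which was lower (all peaks 0.595% lower and 0.68% higher). For LPS it was 3 in WT PMs (3.03%, all peaks 7.82%), 2 higher (all peaks 2.69%) and 1 lower (all peaks 5.13%), and 5 in Adap-/- PMs (5.05%, all peaks 7%), 3 higher (all peaks 2.44%) and 2 lower (all peaks 4.56%). Standard errors of these log2 changes were 0.203 or more.

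The start codon peak of Tlnrd1 (chr7:83532456-83532805) was the 1 higher peak in Adap-/- PMs after LPS. Its ratio was 1.46 and 2.39 in Adap-/- LPS, 0.735 and 0.714 in WT LPS, 0.497 and 1.27 in Adap-/- mock and 0.87 and 0.622 in WT mock replicates. Both Adap-/- LPS replicates were above the 6 others, with a log2 change of 1.39 (SE 0.49, unadjusted p = 0.0162, adjusted p = 0.604) against WT LPS and 1.10 (SE 0.49, unadjusted p = 0.046, adjusted p = 0.425) against Adap-/- mock. Without WT mock replicate 1 and Adap-/- mock replicate 2, a setting added after the data were seen, the latter was 1.89 with an adjusted p of 0.0349. It no longer passed the unadjusted thresholds with separate scaling of IP and input (0.96), with DESeq2 (0.96), with the 8 libraries compared (1.10), without Adap-/- LPS replicate 2 (0.72) or without Adap-/- mock replicate 1 (0.52). The difference from WT LPS no longer passed without Adap-/- LPS replicate 2 (1.01), WT LPS replicate 1 (1.41) or WT LPS replicate 2 (1.37). The CDS and stop codon peaks of Tlnrd1 were at 0.40 and 0.44 against WT LPS, with unadjusted p-values of 0.154 and 0.116.

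Of the lower peaks after LPS, a CDS peak of Kif3b (chr2:153159445-153159594) had ratios of 0.375 and 0.497 in Adap-/- LPS, 2.22 and 2.99 in WT LPS, 3.63 and 1.17 in Adap-/- mock and 1.71 and 3.06 in WT mock replicates. The groups did not overlap after LPS, with a log2 change of -2.60 (SE 0.76, unadjusted p = 0.00557, adjusted p = 0.525), but the input held 6-23 reads per library. Against Adap-/- mock it was at -2.43 (SE 0.77, adjusted p = 0.291), at -1.51 without Adap-/- mock replicate 1 and at -3.13 without WT mock replicate 1 and Adap-/- mock replicate 2. Neighbouring CDS peaks of Kif3b were at -0.05 and 0.02 against WT LPS. The 3′UTR peak of Coro1c (chr5:113980662-113980836) had ratios of 0.148 and 0.217 in Adap-/- LPS and 0.587 and 0.289 in WT LPS replicates, a log2 change of -1.18 (SE 0.41, adjusted p = 0.582), and it lay at -0.66 without WT LPS replicate 1.

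The stop codon peak of Kif19 (chr11:114681019-114681068) kept 55 and 70 IP reads in WT LPS libraries, where the input held 3 and 5 reads, and gave 0 and 0 IP reads in Adap-/- LPS libraries, at least 61.7-fold lower against a floor of 3 counts over the group. It met the limit of 10 input reads on average through the mock libraries alone, and with almost no input after LPS its ratio there could not be measured, so no fitted ratio change is given. LPS lowered this transcript by more than the log2 fall of 4 used to choose the 22 LPS-lowered peaks, so it may be among them. On those peaks the WT LPS IP libraries stood above their inputs, whose low share follows from the choice. The part of these IP libraries in the result was not tested. A start codon peak of Itgb5, counted like the Kif19 peak among the 4 lower ones after LPS, had at most 3 input reads in any library and is given as IP reads only, 6 and 18 in WT LPS, 0 and 0 in Adap-/- LPS, 59 and 157 in WT mock and 97 and 13 in Adap-/- mock libraries.

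For LPS against mock, the 3′UTR peak of Icam1 (chr9:20939728-20939927) had ratios of 1.23 and 0.315 in WT mock and 0.206 and 0.175 in WT LPS replicates, with a log2 change of -2.06 (SE 0.86, unadjusted p = 0.0358). Without WT mock replicate 1 it was -0.71, and without Adap-/- mock replicate 2 as well -0.78, and in Adap-/- PMs the ratios were 0.268 and 0.86 in mock and 0.205 and 0.251 in LPS replicates. In both genotypes the high mock value came from the replicate whose IP library held LPS-raised transcripts. At the stop codon peak those replicates had ratios of 2.21 in WT and 2.04 in Adap-/- PMs, beside 1.76 and 1.77 in the other mock replicates. The part of these libraries in the Icam1 values was not tested. The stop codon peak of Icam1 was at -0.37 (SE 0.29) in WT PMs. A CDS peak of Macf1 (chr4:123365379-123365553) was higher after LPS in WT PMs, at 1.67 and 1.08 beside 0.504 and 0.813 (log2 change 1.01, SE 0.43, adjusted p = 0.427), and no longer passed the unadjusted thresholds in 7 alternatives, among them DESeq2 (0.92), separate scaling of IP and input (0.90), the replicate block (1.06), WT LPS replicate 1 left out (0.72) and both of the mock replicates above left out (0.66). A CDS peak of Plec (chr15:76060899-76061073) was at 1.24 and 1.15 in Adap-/- LPS and 0.52 and 0.637 in Adap-/- mock replicates (1.05, SE 0.42, adjusted p = 0.372). The Coro7 peak (chr16:4467160-4467359), shared with Dnaja3 and Vasn and without a region in Coro7, was low in Adap-/- mock PMs. Its ratios there were 0.488 and 0.763, beside 1.34 and 1.24 in WT mock PMs (-1.08, SE 0.36, adjusted p = 1). In Adap-/- LPS PMs they were 1.58 and 1.34 (1.26, SE 0.35, adjusted p = 0.271). Without WT mock replicate 1 and Adap-/- mock replicate 2, the log2 change was 1.16 for the Plec peak with LPS in Adap-/- PMs, -1.33 for the Coro7 peak between genotypes in mock PMs and 1.53 with LPS in Adap-/- PMs. Without Adap-/- mock replicate 1 these were 0.85, -0.72 and 0.87, none of them past the unadjusted thresholds. The Plec peak fell short in 6 alternatives, among them DESeq2 (0.91) and separate scaling (0.91).

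**Figure D5:**
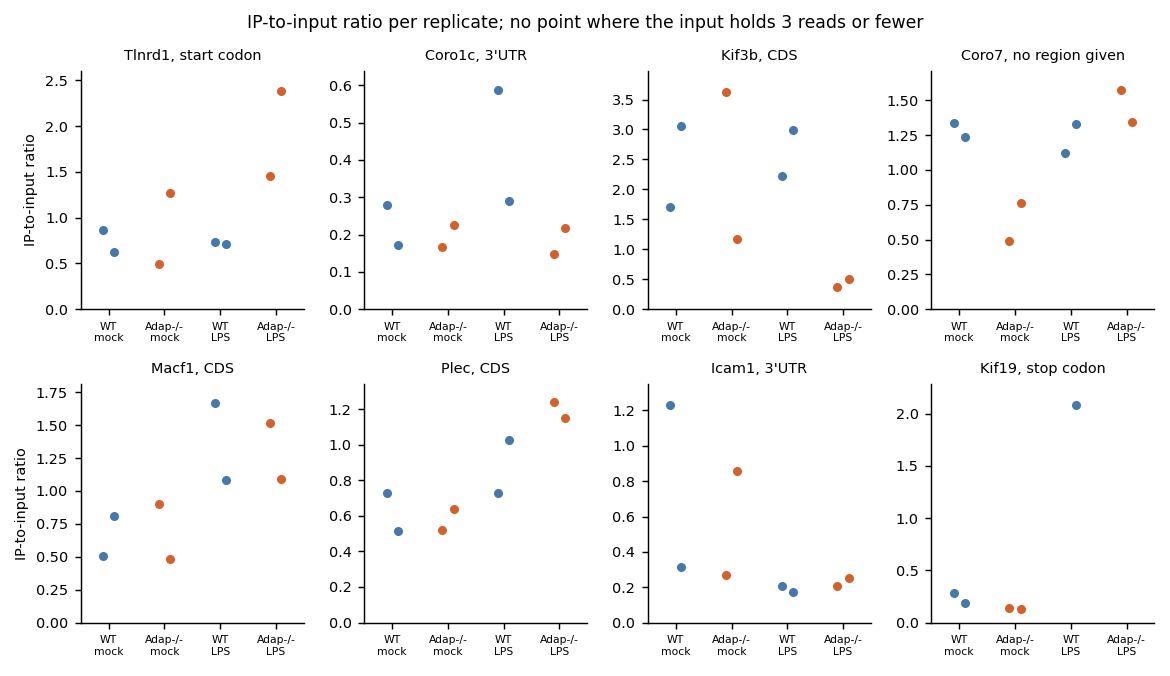
IP-to-input ratio (y axis, from 0) of the 8 peaks past the unadjusted thresholds with a mean input of at least 10 reads, with 1 point per replicate, WT in blue and Adap-/- in orange. The Adap-/- LPS replicates of Tlnrd1, at 1.46 and 2.39, lie above its 6 others, and no ratio is drawn for Kif19 where the input held 3 reads or fewer.

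Peaks of Itgb2, Itgal and Vasp, genes tied to ADAP, did not pass the test. The Itgal peaks lie side by side and may share reads. The start codon peak of Itgb2 was at -0.48 (SE 0.51) and the start codon peak of Vasp at 0.10 (SE 0.29) for Adap-/- against WT after LPS, and both stop codon peaks of Itgal at -0.22 (SE 0.60) and -0.15 (SE 0.50), with unadjusted p-values from 0.367 to 0.774.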

How the data were processed

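PMs of 4 groups gave 8 input and 8 IP libraries. The authors aligned and counted the reads, and the deposited table holds raw read counts per merged peak and library, with gene, region and KEGG pathway. The submitters' processing notes name Bowtie2 2.2.8, MACS2 2.1.2, DiffBind 2.8 and the build GRCm39, and the methods name the Omicsmart platform. Coordinates are those of the table.

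Input counts were summed over all peaks of a gene, so that transcripts without a peak are not covered, and unspliced and overlapping transcripts are not separated. R 4.3.3 with edgeR 4.0.16 was used (TMM, filterByExpr with a minimum count of 10 and total of 15), with quasi-likelihood p-values adjusted by Benjamini-Hochberg over 4742 genes or 7058 peaks, after testing on simulated data. The simulated peaks varied less between replicates than the real ones, so that testing does not cover their spread. CPM values are TMM-scaled. Gene tests used the 8 input libraries. Ratio tests used all 16 libraries, with the contrast of IP against input between groups. The standard error is the size of the log2 fold change over the root of F. Counting error is largest for peaks with few reads, and 8 of 99 peaks had a mean input below 10. No molecular identifiers are described, so intervals and floors cover counting error only.

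The members and gene lists were chosen with earlier results of these data known. Named were members tied to ADAP, the 12 highest and 12 lowest called genes with non-overlapping replicates per LPS comparison, up to 8 each way for Adap-/- against WT after LPS, up to 5 each way for mock PMs and for the difference of responses, up to 5 peaks each way past the unadjusted thresholds with a mean input of at least 10, and the 5 highest and 5 lowest ratios. Others named were chosen after their values were seen. Alternatives were RLE scaling, DESeq2 1.42.0, other filters, peaks of 1 gene only, a replicate block, separate scaling, fewer libraries and each library left out. The values of 1 tested gene are not reported here, though it stays in the counts.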

Additional observations from a re-analysis of the deposited data

Results flagged for a closer look

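The LPS response of Tlnrd1 differed between genotypes in the test of the difference itself, at 0.58 on the log2 scale (SE 0.13, edgeR adjusted p = 0.0375), with 299 and 327 CPM before and 337 and 329 CPM after LPS in WT PMs and 243 and 226 CPM before and 374 and 371 CPM after LPS in Adap-/- PMs. The call was lost without each of 7 of the 8 libraries and with the replicate number as a block (adjusted p = 0.0547). The input reads of Tlnrd1 come from 3 peaks, none of them shared with another gene.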

How the results depend on the processing

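Across the alternatives, the counts of genes called for LPS against mock stayed between 32 and 37 in WT and between 31 and 36 in Adap-/- PMs, and leaving out 1 library gave 31-37 and 27-37. For Adap-/- against WT after LPS the count was 6 with DESeq2 instead of 10, and 3-11 with 1 library left out. In mock PMs leaving out 1 library gave 5-13. For the difference of responses it was 2 with DESeq2, and 0-2 with 1 library left out. The differences between replicates correlated at -0.0889 to 0.166 across groups of input libraries, which shows no strong pairing of groups by replicate number. The IP and input libraries of a replicate came from the same RNA and are paired by design. Their differences correlated at -0.098 to 0.0908, and the main ratio test did not use this pairing. With the replicate number as a block, the count after LPS between genotypes was 8 instead of 10 (Myh9 and Washc2 lost), the count for the difference of responses was 0 instead of 1, and with the IP and input library of a replicate as a block, the peaks past the unadjusted thresholds for LPS in WT PMs were 1 instead of 3.

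For the peaks, LPS in Adap-/- PMs gave 3 with scaling within IP and within input and 3 with DESeq2, instead of 5. Without WT mock replicate 1 and Adap-/- mock replicate 2, an alternative added after the data were seen, the counts were 2 for Adap-/- against WT in mock PMs and 9 for LPS in Adap-/- PMs, 1 of them, Tlnrd1, at an adjusted p below 0.05. Leaving out 1 replicate gave 4-11 for Adap-/- against WT after LPS (9 and 11 without Adap-/- LPS replicates 1 and 2), 2-5 in mock PMs (5 without WT mock replicate 2), 2-11 for LPS in WT (11 without WT mock replicate 2, 5 without WT LPS replicate 2) and 5-10 for LPS in Adap-/- PMs (8 and 10 without Adap-/- LPS replicates 1 and 2). The cause was not tested.

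Among the named genes and peaks, signs turned for genes that were not called. Itgb2 was at 0.02 with at least 10 counts in every library and at 0 with peaks of 1 gene for Adap-/- against WT after LPS, and at -0.21 to 0.2 with 1 library left out. With 1 library left out, Itgb2 was at -0.37 to 0.05 for LPS in Adap-/- PMs. In the same way Tln1 was at -0.09 to 0.31 and Was at -0.35 to 0.11 after LPS, Vasp at -0.02 to 0.44, Tln1 at -0.02 to 0.18 and Itgb1 at -0.16 to 0.09 in mock PMs, and Vasp at -0.01 to 0.51 and Tln1 at -0.17 to 0.23 for the difference of responses. Of the other values for named genes under an alternative, 1195 kept direction and side of the threshold, 61 fell short of it and 10 newly passed it. For named peaks 83 kept it and 33 fell short. The gene values include fits without a library that the comparison did not use, and genes not called. Peaks were counted only for replicates of the groups compared, so the gene and peak counts are not alike.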
